A study of Homo sapiens with 4 samples.

Results

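Of 14298 filtered H3K4me3 peaks in HCT116 cells, 680 shared no base with a filtered TAF3 or RNAPII peak (4.76%, Wilson 95% interval 4.42 to 5.12%). These marked regions are described here as regions without partners, which means without a filtered partner peak. They are the peaks of the authors' filtered H3K4me3 list that overlap neither filtered partner list by 1 bp or more, and were thus chosen by the thresholded TAF3 and RNAPII peak calls. Most of the 680 did overlap a TAF3 or RNAPII peak that the authors' filter left out, and 197 overlapped none. By the same filtered lists, 2057 of the other H3K4me3 peaks had RNAPII and no TAF3, 11523 had both and 38 had TAF3 and no RNAPII.

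HCT116 cells are a long-established line from a human colorectal carcinoma. They were grown untreated, used at passages 15 to 18, and crosslinked for 10 min in 1% formaldehyde. One library each was made for TAF3, with an antiserum against residues 290 to 389 of the human protein, for H3K4me3 and for RNAPII, and peaks were called against 1 shared input DNA library. There are no replicates and peaks are not replicates, so no p-value is given and every interval covers the counting of peaks only. After duplicate removal the libraries held 17411155 TAF3, 12560129 H3K4me3, 16841238 RNAPII and 19185386 input tags.

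H3K4me3 is trimethylation of lysine 4 on histone H3. SET1 and MLL family enzymes place it around transcription starts, above all at CpG islands. TAF3 is a subunit of TFIID, the general factor that recognises core promoters, and the PHD finger of TAF3 binds this mark. RNA polymerase II is then assembled with the other general factors into the preinitiation complex. The mark is also known at promoters with little transcription, such as the bivalent promoters of stem cells, where the Polycomb mark H3K27me3 is present too. H3K27me3, DNA methylation and RNA were not analysed here. No hg19 annotation was used, so each region goes by its hg19 position (first base of a chromosome = 1), and no gene or sequence is given.

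The regions without partners carried little of the mark. They held 85892 H3K4me3 tags, 0.841% of the tags in all filtered H3K4me3 peaks, and covered 0.850 Mb, 2.58% of the bases in these peaks. Their median fold enrichment over input, the ratio at the peak's summit that the peak caller MACS gives, was 35.8 (quartiles 27.3 and 54.4), with a lowest value of 9.72 and a highest of 181. The median was 50.5-fold at peaks with RNAPII and no TAF3 and 141-fold at peaks with both. The regions without partners had a median of 88 tags (quartiles 62 and 147) and a median width of 1174 bp (quartiles 939 and 1446 bp). Peaks with RNAPII and no TAF3 had medians of 164 tags and 1452 bp, and peaks with both had 793 tags and 2423 bp.

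The distributions overlapped. The lowest fold enrichment was 9.72 without partners, 10.1 with RNAPII and no TAF3, 9.43 with both and 18.0 in the 38 peaks with TAF3 and no RNAPII. Of the 680 regions, 676 were below the median fold enrichment of all other H3K4me3 peaks, which was 130.4, and 652 were narrower than their median width of 2287 bp. In 39 of them (5.74%) the MACS score, the negative log10 of the p-value multiplied by 10, stood at 3100 or more. Among the other peaks this was so in 78.9%. Many scores stood at exactly 3100, which acts as a cap, although the highest among the 680 reached 3223. Strength was not held constant by the rule, so these values describe the regions and test nothing.

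**Figure D1:**
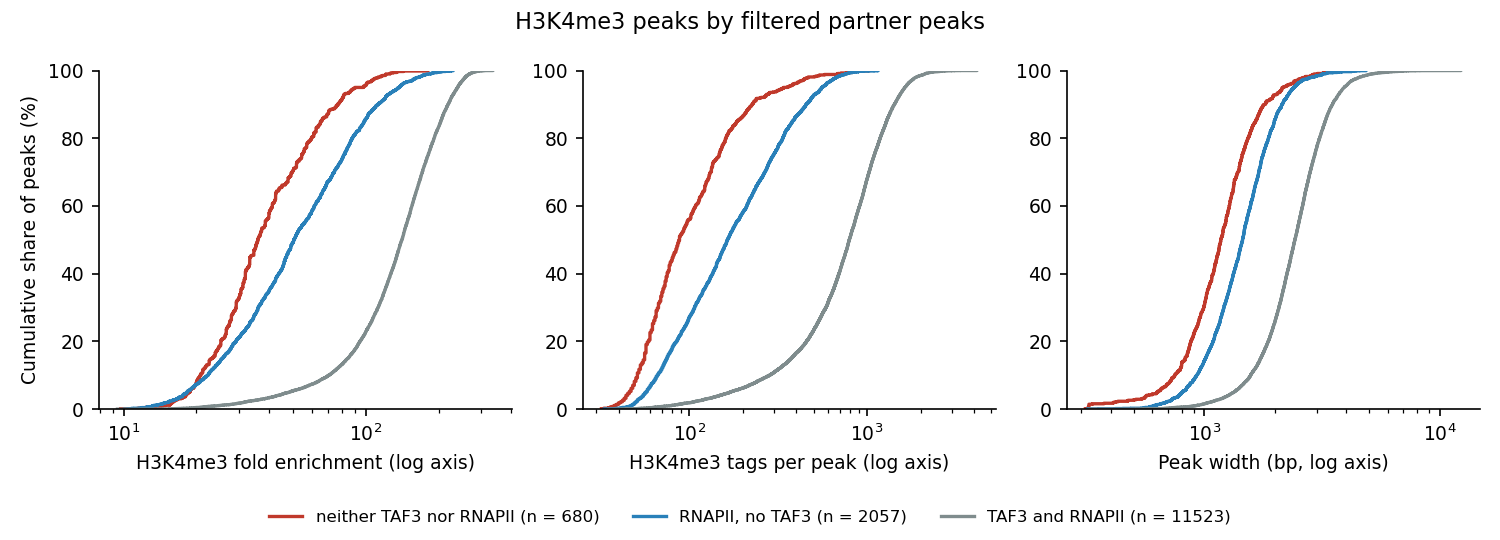
Cumulative share of H3K4me3 peaks (%) against fold enrichment over input, tags per peak and width in bp, all on log axes, for the 680 peaks with neither partner (red), the 2057 with RNAPII and no TAF3 (blue) and the 11523 with both (grey). The red curves lie left of the blue and grey ones at the median (35.8-fold, 88 tags and 1174 bp), while the lowest fold enrichments of the 3 classes are alike.

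At like fold enrichment the regions without partners were also the narrower peaks. A narrower peak has fewer bases that can meet a partner peak, so the rule itself favours narrow peaks at any enrichment. Tags are counted over the same width, so both differences are given as descriptions. The whole list was split into 10 equal groups (deciles) by H3K4me3 fold enrichment, and 573 of the 680 regions (84.3%) fell in the lowest 2 deciles. In the lowest decile 376 regions without partners had a median width of 1108 bp and 69 tags, and the 1054 other peaks had 1287 bp and 94 tags, at median fold enrichments of 27.9 and 27.6. In the second decile 197 regions had medians of 1223 bp and 122 tags, against 1511 bp and 179 tags in 1233 other peaks. In the third decile 71 regions had 1319 bp and 184 tags, against 1899 bp and 376 tags in 1359 other peaks.

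The median width was therefore lower by 180 bp in the lowest decile, 71.8% of whose 376 regions were narrower than the median of the other peaks. The size of the difference depended on the binning: it was -105 bp and -13 tags with bins of score, and -258 bp and -54 tags with 5 bins of fold enrichment, both chosen after seeing the data. The median width and the median tag number were lower without partners in 5 of the 5 deciles that held 10 or more such regions, both against all other peaks and against peaks with RNAPII and no TAF3. The difference from peaks with RNAPII and no TAF3 was the smaller one: in the lowest decile these had medians of 1238 bp and 87 tags. The quartile ranges of the classes overlapped in each of the lowest 2 deciles.

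**Figure D2:**
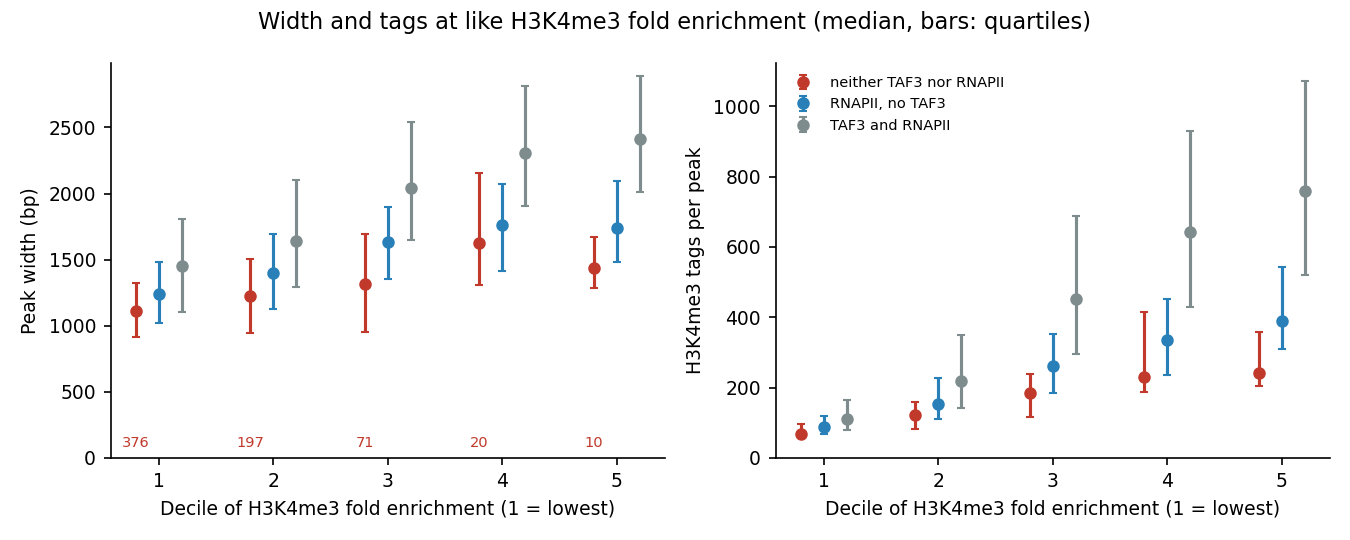
Median peak width (bp, left) and median H3K4me3 tags per peak (right) in the lowest 5 deciles of H3K4me3 fold enrichment, with bars from the lower to the upper quartile. Red points are peaks with neither partner (their number is printed above the axis), blue points peaks with RNAPII and no TAF3, grey points peaks with both; the red point is the lowest of the 3 in every decile shown.

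The strongest regions without partners came up to the median enrichment of peaks with both partners, 141-fold, which 2 of the 680 exceeded. At chr14:73358916-73362228 H3K4me3 reached 181-fold with 1026 tags over 3313 bp, while the TAF3 peak there had 10.3-fold enrichment with 13 tags and the RNAPII peak 17.4-fold with 18 tags. Both of these partner peaks come from the full MACS lists, which also hold the peaks that the authors' filter left out (fold enrichment above 5 and false discovery rate below 5% were required). Each called partner peak thus held fewer tags than the H3K4me3 peak, although both partner libraries were the deeper ones. Partner tags were counted within the partner peaks and not over the whole region, so the counts are not over like widths.

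Of the next 3 strongest regions, those at chromosomes 10 and 3 also held both partners outside the filter, at fold enrichments far below that of the mark. At chr10:52750038-52752200 the values were 143-fold for H3K4me3 (518 tags), 12.8-fold for TAF3 (28 tags) and 14.2-fold for RNAPII (39 tags). At chr3:18464948-18467879 they were 134-fold for H3K4me3 (838 tags), 16.8-fold for TAF3 (30 tags) and 14.7-fold for RNAPII (37 tags). The nearest filtered TAF3 peak lay 680 kb away from this last region and the nearest filtered H3K4me3 peak 17.8 kb away.

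Other strong regions stood apart from each other in how much of the partners they held. The region at chr12:85429468-85430832 had 135-fold H3K4me3 (209 tags) and 9.05-fold TAF3 (12 tags), with no RNAPII peak in either list. It was also the most isolated of the 680, with 2348 kb to the nearest filtered TAF3 or RNAPII peak and 2347 kb to the nearest other H3K4me3 peak. At chr4:149365186-149367572 the surroundings were the opposite: the values were 129.8-fold for H3K4me3 (533 tags), 10.3-fold for TAF3 (25 tags) and 23.7-fold for RNAPII (44 tags), and a filtered RNAPII peak lay 758 bp away.

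At chr7:128783829-128785961 H3K4me3 was 126.8-fold with 447 tags, TAF3 6.07-fold with 40 tags and RNAPII 14.2-fold with 32 tags. The 788 bp region at chr9:70402742-70403529 had 126.1-fold H3K4me3 (179 tags) and no TAF3 or RNAPII peak in the full lists. The remaining 3 of the 10 strongest had an RNAPII peak outside the filter and no TAF3 peak in the full list. They were chr9:89560909-89563794 (121-fold H3K4me3, 12.2-fold RNAPII), chr6:143247713-143248971 (120.8-fold H3K4me3, 18.7-fold RNAPII) and chr8:107737962-107739318 (120.4-fold H3K4me3, 16.95-fold RNAPII).

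Among the widest regions and those with most tags, some held weak partners and some did not. The widest region, chr11:16625675-16629945, spanned 4271 bp with 823 H3K4me3 tags at 100.9-fold and had no TAF3 or RNAPII peak in the full lists. The second widest, chr20:18036735-18040590, spanned 3856 bp with 715 tags at 81.4-fold. It had a TAF3 peak of 11.4-fold with its summit 1281 bp to one side of the H3K4me3 summit and an RNAPII peak of 9.49-fold with its summit 1230 bp to the other. At chr9:116915956-116919346 (3391 bp, 505 tags) TAF3 was 5.48-fold and RNAPII 19.7-fold. The region at chr18:32556263-32559482 (3220 bp, 859 tags) had RNAPII of 22.1-fold and no TAF3 peak in the full list, and so had chr3:13919435-13922621 (3187 bp, 764 tags), where RNAPII was 10.2-fold.

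The 5 weakest regions each overlapped an RNAPII peak outside the filter, as did 68.7% of all 680 and 70.3% of all H3K4me3 peaks without filtered RNAPII. The lowest H3K4me3 value was 9.72-fold with 129 tags at chr1:85986394-85987958, where RNAPII was 5.24-fold with 65 tags. At chr17:77783596-77785929 H3K4me3 was 11.4-fold with 125 tags, TAF3 7.02-fold with 49 tags and RNAPII 7.53-fold with 64 tags. At chr17:7080639-7081844 the RNAPII value of 15.4-fold (55 tags) exceeded the H3K4me3 value of 12.3-fold (77 tags). The other regions among the 5 weakest were chr10:116063693-116064875 (12.3-fold H3K4me3, 6.75-fold RNAPII) and chr2:37603188-37604609 (13.5-fold H3K4me3, 8.53-fold RNAPII). Over all regions without partners, 13 RNAPII peaks and 0 TAF3 peaks outside the filter exceeded the H3K4me3 fold enrichment of the region they overlapped. All 3 antibodies were set against the same input but may enrich differently, so this order is a description.

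Most regions without a filtered partner did have a weaker partner peak, and it was RNAPII more often than TAF3. An RNAPII peak outside the filter overlapped 467 of the 680 (68.7%, 95% interval 65.1 to 72.0%) and a TAF3 peak outside the filter 191 (28.1%, 95% interval 24.8 to 31.6%). The full RNAPII list is the longer, with 36443 peaks outside the filter against 6122 for TAF3, so the shares of the libraries are not on a common scale. Both partners were present outside the filter at 175 regions (25.7%), RNAPII alone at 292 (42.9%), TAF3 alone at 16 (2.35%) and neither at 197 (28.97%, 95% interval 25.7 to 32.5%). These shares depend on how weak a peak is accepted: with partner peaks of score 100 or more, TAF3 was present at 10.0%, RNAPII at 51.3% and neither at 47.6%.

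TAF3 below the filter was found mainly where RNAPII below the filter was found. Of the 467 regions with such an RNAPII peak, 175 had it (37.5%, 95% interval 33.2 to 41.9%). Of the 213 other regions, 16 did (7.51%, 95% interval 4.68 to 11.9%). Among all 2737 H3K4me3 peaks that lack a filtered TAF3 peak, 70.2% overlapped a TAF3 peak outside the filter, and among all 718 that lack a filtered RNAPII peak 70.3% overlapped an RNAPII peak outside it. The RNAPII share of the regions without partners was thus near its background, which these regions mostly make up, and the TAF3 share was below its own.

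At like H3K4me3 enrichment the TAF3 share was also lower than where RNAPII was present. In the lowest decile a TAF3 peak outside the filter overlapped 87 of 376 regions without partners (23.1%, 95% interval 19.2 to 27.7%) and 519 of 686 peaks with RNAPII and no filtered TAF3 (75.7%, 95% interval 72.3 to 78.7%). In the second decile the shares were 28.9% of 197 and 85.6% of 603, and in the third 45.1% of 71 and 87.6% of 372. The next 2 deciles held 20 and 10 regions without partners, with a share of 30.0% in each and upper bounds of 51.9% and 60.3%. Neither class has filtered TAF3 and the rule itself separates them by RNAPII, so the difference is given as a description.

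The 4 classes by weak partner overlapped in the mark. The median H3K4me3 fold enrichment was 40.1 with both partners outside the filter, 34.5 with RNAPII alone, 54.5 in the 16 regions with TAF3 alone and 34.5 with neither. The median tag numbers were 104, 87, 125.5 and 80, and the median widths 1189, 1188, 1266 and 1094 bp, in the same order. The quartile ranges of fold enrichment overlapped among all 4 classes, from 29.3 to 64.1 with both and from 28.1 to 49.1 with neither. Across the 191 regions with a TAF3 peak outside the filter the rank correlation of H3K4me3 with TAF3 fold enrichment was 0.27, and across the 467 with RNAPII that with RNAPII was 0.21. Both enrichments are over the same input.

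The weak TAF3 peaks held fewer tags than those elsewhere. The 198 TAF3 peaks at these regions had a median of 20 tags (lowest 10, highest 79) and a median fold enrichment of 10.3 (lowest 4.08, highest 27.1), over a median of 522.5 bp. The 5924 TAF3 peaks outside the filter elsewhere had medians of 28 tags, 9.82-fold and 626 bp, so the peaks at these regions had fewer tags and a slightly higher fold enrichment. Of the 198, 18 (9.09%) had a false discovery rate below 10%, against 20.96% of all TAF3 peaks outside the filter. TAF3 peaks outside the filter at H3K4me3 peaks with RNAPII had a median of 36 tags and 11.1-fold. The highest TAF3 value was 27.1-fold with 26 tags at chr1:174818226-174818771, where H3K4me3 was 31.9-fold with 38 tags. It was followed by chr10:82212782-82213914 (23.8-fold TAF3, 62.3-fold H3K4me3), chr1:22755125-22756200 (23.3-fold TAF3, 84.9-fold H3K4me3), chr20:8581622-8582550 (21.97-fold TAF3, 37.2-fold H3K4me3) and chr4:76051159-76052477 (20.7-fold TAF3, 65.0-fold H3K4me3). On chromosomes 10 and 4 the false discovery rate was 5.04%, just past the filter.

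The weak RNAPII peaks held more tags and a higher enrichment than those elsewhere. Over the 508 overlaps, made by 507 RNAPII peaks, these had a median of 29 tags (lowest 10, highest 536) and 13.7-fold enrichment (lowest 4.18, highest 109), over a median of 565.5 bp, and 345 (67.9%) had a false discovery rate below 10%, against 37.1% of all RNAPII peaks outside the filter. The false discovery rates are estimated per library, so the shares below 10% are not on a common scale between RNAPII and TAF3. The 35936 RNAPII peaks outside the filter that lay elsewhere had a median of 25 tags and 9.29-fold. Where both partners were present outside the filter, the fold enrichment of RNAPII exceeded that of TAF3 in 150 of 175 regions (85.7%).

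Strong RNAPII stood at 2 of the 680 regions. The H3K4me3 peak at chr10:82212782-82213914 overlapped RNAPII with 378 tags and an enrichment of 109-fold, and that at chr22:38034898-38037286 overlapped RNAPII with 536 tags and 32.7-fold. Both RNAPII peaks had scores above 3100 and were left out of the filtered list by false discovery rates of 8% and 5%. The region on chromosome 10 also held the second highest of the weak TAF3 values. After these, the highest RNAPII values were 40.1-fold (34 tags) at chr7:76140686-76141829, 31.6-fold (39 tags) at chr14:60042991-60043856 and 30.98-fold (34 tags) at chr2:16846476-16847755, where H3K4me3 had 54.4-fold, 35.1-fold and 36.5-fold.

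**Figure D3:**
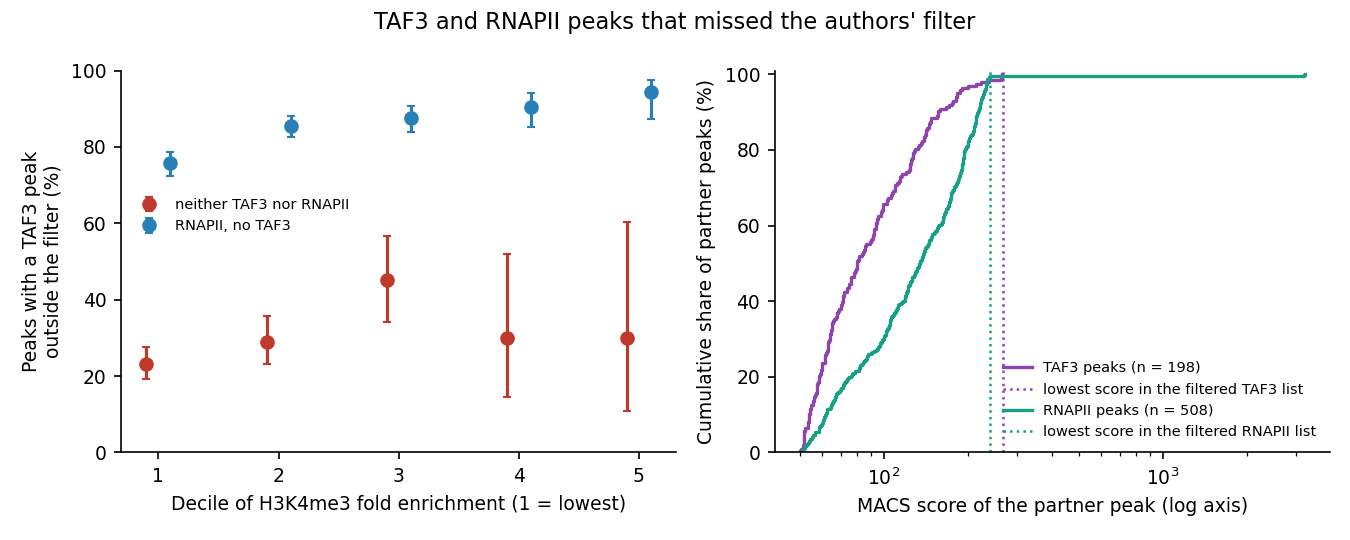
Left, the share (%) of H3K4me3 peaks with a TAF3 peak outside the authors' filter, by decile of H3K4me3 fold enrichment, for peaks with neither filtered partner (red) and peaks with RNAPII and no TAF3 (blue), with Wilson 95% intervals. Right, the cumulative share of the 198 TAF3 and 508 RNAPII overlaps at the 680 regions against their MACS score on a log axis, with dotted lines at the lowest score in each filtered list; red points lie at 23.1% to 45.1%, and 2 RNAPII peaks lie beyond 3100.

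Most weak partner peaks had their summits inside the marked region but not at its summit. The summit of the partner was within the H3K4me3 peak for 196 of 198 TAF3 and 500 of 508 RNAPII overlaps, all of which were selected for overlap, and within 50 bp of the H3K4me3 summit for 45 (22.7%) and 63 (12.4%). The median distance to the H3K4me3 summit was 142.5 bp for TAF3 (quartiles 55 and 300 bp) and 177.5 bp for RNAPII (quartiles 93 and 317 bp), and 157 bp for the weak TAF3 peaks at H3K4me3 peaks with RNAPII. In the 175 regions with both, TAF3 and RNAPII summits were a median of 87 bp apart (quartiles 33.5 and 216.5 bp), and 62 pairs (35.4%) lay within 50 bp. The H3K4me3 summit itself lay between 0.40 and 0.59 of the region's width at the quartiles.

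The regions without partners were more isolated than the other classes of H3K4me3 peaks, which were stronger as a whole. Gaps were not compared at like H3K4me3 enrichment. The median gap to the nearest other filtered H3K4me3 peak was 51.3 kb without partners (quartiles 11.8 and 128 kb), 24.9 kb at peaks with RNAPII and no TAF3 and 30.6 kb at peaks with both. Another H3K4me3 peak lay within 100 kb of 67.4% of them, against 82.7% and 81.4% of those classes. Within 10 kb the share was 22.4% (95% interval 19.4 to 25.6%), against 29.6% and 25.4%, with 25.9% of all H3K4me3 peaks. Within 1 kb it was 8.38%, against 8.51% and 7.45%, and at this range the intervals of the 3 classes overlapped.

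Filtered partner peaks were far from most of the 680 regions. The nearest filtered RNAPII peak lay at a median of 42.6 kb (quartiles 12.1 and 113.7 kb) and the nearest filtered TAF3 peak at 81.3 kb (quartiles 28.8 and 183 kb), while the median gap to TAF3 was 38.4 kb for peaks with RNAPII and no TAF3. An RNAPII peak lay within 10 kb of 147 regions (21.6%) and over 100 kb from 195. Only 3 regions had filtered RNAPII peaks on both sides within 5 kb, and 13 within 10 kb. Regions far from RNAPII did not carry less of the mark: the 195 over 100 kb away had medians of 102 tags and 39.8-fold, and the 147 within 10 kb had 82 tags and 32.1-fold, with overlapping quartiles of fold enrichment (29.2 to 60.2 and 25.2 to 51.8).

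**Figure D4:**
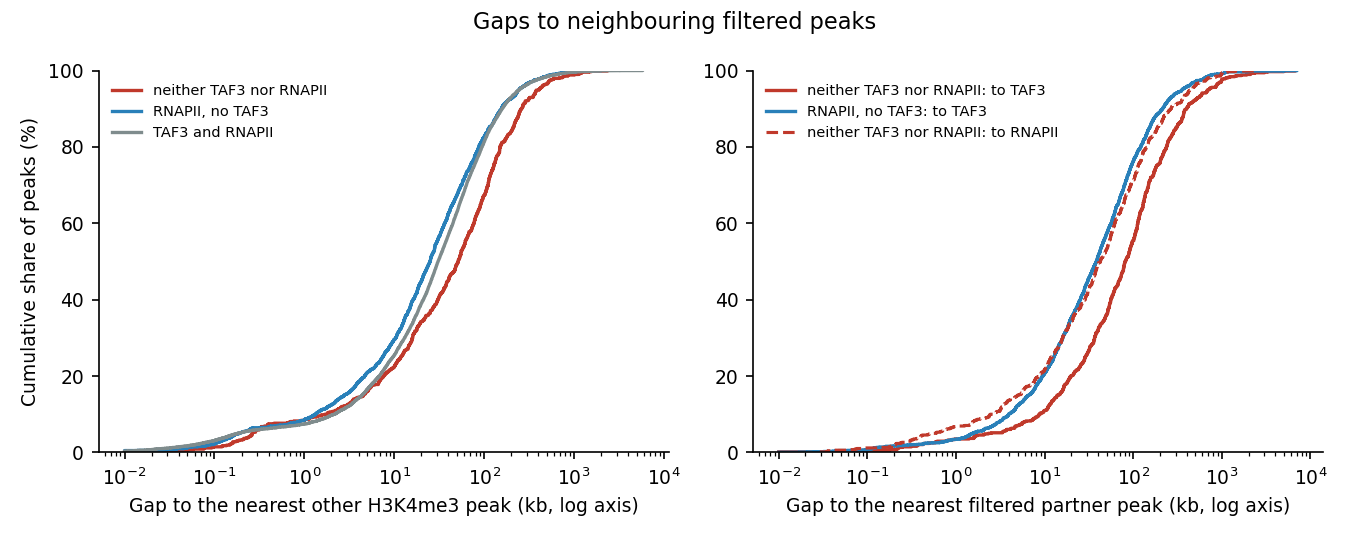
Left, cumulative share (%) of H3K4me3 peaks against the gap in kb to the nearest other filtered H3K4me3 peak, on a log axis, for peaks with neither partner (red), with RNAPII and no TAF3 (blue) and with both (grey). Right, the gap to the nearest filtered TAF3 peak (solid) or RNAPII peak (dashed); gaps under 0.01 kb are drawn at 0.01 kb. The curves lie close together at 1 kb (8.38%, 8.51% and 7.45%) and the red curves run to the right above 10 kb, with medians of 51.3 kb to H3K4me3, 81.3 kb to TAF3 and 42.6 kb to RNAPII.

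A minority lay beside a larger H3K4me3 peak. Of the 57 regions with another H3K4me3 peak within 1 kb, the neighbour had both partners in 26 cases, RNAPII and no TAF3 in 14, TAF3 and no RNAPII in 1, and was itself without partners in 16. The neighbour held more tags in 41 of the 57, with medians of 82 tags in the region and 171 in its neighbour. This is not particular to close neighbours. At any distance the nearest H3K4me3 peak held more tags for 576 of the 680, with a median of 496.5 tags. These 57 regions had a median width of 948 bp and 40.4-fold enrichment, and the other 623 had 1194 bp and 35.8-fold. Over the whole set, the nearest H3K4me3 peak at any distance had both partners for 460 of 680 regions (67.6%), while peaks with both make up 80.6% of the list.

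Some peaks lay close to the boundary of the rule, on either side of it. The region nearest to a filtered partner, chr8:57122491-57123950 (115-fold, 311 tags), lay 2 bp from a TAF3 peak. The next were chr3:49592113-49593057 (61.2-fold, 159 tags), chr11:2464824-2465952 (51.8-fold, 129 tags), chr3:66551688-66552515 (30.5-fold, 49 tags) and chr15:34728326-34729775 (90.2-fold, 228 tags), at 29, 35, 36 and 39 bp from an RNAPII peak. Just outside the rule was chr1:16841180-16841651 (42.5-fold, 42 tags), which shared 5 bp with an RNAPII peak and 4 bp with a TAF3 peak. Next came chrX:18442409-18443522 (71.7-fold, 180 tags), which shared 34 bp with an RNAPII peak and none with a filtered TAF3 peak. The following ones, also with RNAPII alone, were chr19:5805316-5806482 (122-fold, 372 tags), chr8:22550148-22550762 (39.0-fold, 61 tags) and chr16:11762473-11763638 (96.3-fold, 387 tags), with 41, 47 and 58 bp. Enrichment thus ranged from 30.5- to 115-fold in the 5 just inside and from 39.0- to 122-fold in the 5 just outside.

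At the other extreme were regions with no filtered partner for 1000 kb or more. Gaps were counted in hg19 positions alone, and mappability and unsequenced stretches within them were not tested. After the region on chromosome 12, the farthest were chr2:90448878-90451123 (102-fold, 213 tags), with 1397 kb to the nearest filtered RNAPII peak and no partner in the full lists, and chr9:41954420-41955225 (26.5-fold, 44 tags), with 1162 kb. They were followed by the pair chr5:119799401-119800474 (20.9-fold, 70 tags) and chr5:119793616-119794247 (74.3-fold, 102 tags), which lay 5.15 kb from each other. Each of this pair overlapped an RNAPII peak outside the filter, of 11.7-fold and 16.03-fold.

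Most of the regions stood alone and a few formed runs. With gaps of up to 100 kb between consecutive regions joined, 575 stood alone, 76 were in pairs, 18 in 6 runs of 3, 4 in 1 run and 7 in 1 run. The runs of 4 and 7 were singled out after their values were seen. The run of 7, at chr6:28573924-28759480, held H3K4me3 peaks of 21.2- to 70.3-fold with 50 to 216 tags. One other filtered H3K4me3 peak lay within its 186 kb, and 3 of the 7 had RNAPII and 1 had TAF3 outside the filter. The run of 4, at chr14:21077576-21122130, held peaks of 27.3- to 35.6-fold with 49 to 67 tags, and 2 of the 4 had RNAPII and 1 had TAF3 outside the filter.

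The share of H3K4me3 peaks without partners differed between chromosomes. It was 9.95% on chromosome 18 (21 of 211 peaks, 95% interval 6.60 to 14.7%) and 8.93% on chromosome 4 (49 of 549, 6.82 to 11.6%). It was lowest on chromosome 19 (2.44%, 26 of 1064, 1.67 to 3.56%), chromosome 16 (2.65%, 17 of 641, 1.66 to 4.21%) and chromosome 17 (2.97%, 26 of 875, 2.04 to 4.32%). On chromosome 6 it was 6.82% (53 of 777, 5.25 to 8.81%). The intervals of chromosomes 18, 4 and 6 did not overlap those of chromosomes 19, 16 and 17, and lay above the 4.76% of the whole list. These are the extremes of 24 chromosomes, picked by their values. Chromosome X had 15 of 441 (3.40%) and chromosome Y 0 of its 1 peak.

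The share was lower where H3K4me3 peaks were denser. Across the 22 autosomes the rank correlation between H3K4me3 peaks per Mb and the share without partners was -0.64, as a description of chromosomes that all come from the same libraries. The number of H3K4me3 peaks enters both quantities and is the denominator of the share. What this adds to the correlation was not tested. Chromosome 19 had 18.1 H3K4me3 peaks per Mb, chromosome 18 had 2.71 and chromosome 4 had 2.88, per Mb of the span between the outermost peaks called on the chromosome. In number per Mb the order was different: chromosome 19 had 0.44 regions without partners per Mb, chromosome 18 had 0.27 and chromosome 4 had 0.26. Chromosome 21, with 3.27 H3K4me3 peaks per Mb, had a share of 3.20% (4 of 125) and chromosome 13, with 2.66, had 4.74% (12 of 253), so sparse chromosomes were not uniformly high. For peaks with RNAPII and no TAF3 the same rank correlation was 0.37, with 19.9% on chromosome 19 and 13.3% on chromosome 18.

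**Figure D5:**
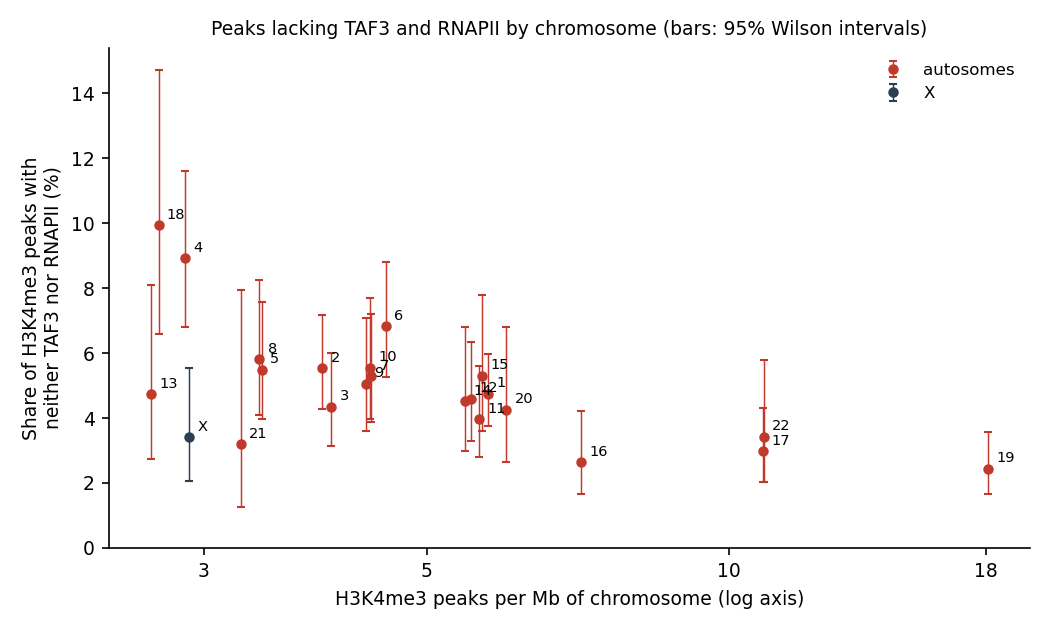
Share (%) of each chromosome's filtered H3K4me3 peaks that had no filtered TAF3 or RNAPII peak, with Wilson 95% intervals, against H3K4me3 peaks per Mb on a log axis, for the 22 autosomes (red) and X (dark). Y, with 1 peak, is left out. Chromosomes 18 and 4 stand highest at 9.95% and 8.93%, and chromosome 19 lowest at 2.44%.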

How the data were processed

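For each of the 3 antibodies, all MACS peaks and a filtered subset were used, on hg19. CASAVA 1.8.2 and MACS 1.4.2 are named per the submitters' processing notes. Alignment settings were not given in the sources used here. MACS called peaks, per the file headers, for each library alone against the shared input, with a p cutoff of 1e-05 and 1 tag kept per position. This caps the tag count of dense places. The deposited tag counts per peak are unscaled. Fold enrichment, as deposited, is a ratio at the summit over local background. The deposited score is -10 times log10 of p. The false discovery rate, also deposited, is a percent that MACS estimates with antibody and input swapped. These are the authors' values. Per the file headers, a peak was kept in the filtered lists at over 5-fold enrichment with under 5% false discovery rate. In these lists every H3K4me3 and TAF3 peak left out failed the false discovery rate, and 4 RNAPII peaks failed the fold alone.

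Overlaps and gaps were computed from the intervals with Python 3.11.15, numpy 2.4.6, pandas 2.3.3 and scipy 1.17.1, and drawn with matplotlib 3.10.9. The code passed 3 of 3 checks on simulated data and gave the bedtools 2.31.1 count for 4 of 4 list pairs. Shares carry Wilson 95% intervals. Groups come from the sample titles, with 1 library each, so no test and no left-out replicate was possible. Regions named are the 10 of highest fold enrichment, the 5 widest, with most tags, weakest, farthest from and nearest to a filtered partner, the 5 just outside the rule, and the 5 strongest partner peaks outside the filter. The regions, lists and comparisons were chosen with earlier results of these data known. The reference tables use another build than the peaks; hence genomic location, gene lists, cell type markers and sequence, though planned, were not analysed here.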

Additional observations from a re-analysis of the deposited data

How the results depend on the processing

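Among 79 values computed under other settings, 54 moved by less than the counting error of the value reported (for the number of regions, by less than 1.5 times). For the lowest-decile differences the bound came from the counting error of the median without partners alone, leaving out that of the other peaks. Settings that kept most of the same regions could move the values only a little. The other 25 moved by more. Only the lowest-decile differences in width and tags have a direction, and 0 of them changed it. The remaining values are counts, medians and shares, which have none. Leaving out chromosomes X and Y, requiring H3K4me3 above 20-fold, adding to the RNAPII list the 40 peaks of score 3100 or more that the filter dropped (678 regions) and leaving out peaks of 400 bp or less (668 regions, a setting chosen after seeing the data) moved no value beyond its interval. Against the full partner lists 197 regions remained, with medians of 80 tags and 1094 bp. With no partner within 1 kb, 15.8% lay within 10 kb of RNAPII and 17.4% within 10 kb of H3K4me3. With the H3K4me3 summit outside every partner peak, 829 regions had medians of 39.8-fold, 105 tags and 1255 bp, with RNAPII outside the filter at 62.2%, TAF3 at 35.3% and a filtered RNAPII peak within 10 kb, overlaps included, at 35.6%. With partner peaks of score 100 or more, RNAPII was present at 51.3%, TAF3 at 10.0% and neither at 47.6%. The lowest-decile differences from other peaks, -179.5 bp and -25 tags, kept their sign under every alternative, all chosen after seeing the data: -258 bp and -54 tags with 5 bins, -134.5 and -17 with 20 bins, -105 and -13 with bins of score, -165.5 and -16 with bins of tags per kb, -130.5 and -18 against peaks with RNAPII and no TAF3, and -343.5 and -41 against peaks with both. The causes were not tested. No paired analysis was possible because each antibody has 1 library.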

Other observations

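Very narrow H3K4me3 peaks were concentrated among the regions without partners, with a bound of 400 bp chosen after the values were seen. Of 16 filtered H3K4me3 peaks of 400 bp or less, 12 were without partners (1.76% of the 680), and 4 were among the 13618 other peaks (0.029%). The rule itself favours narrow peaks, which have fewer bases to share, and these shares were not matched in strength. The 12 were 312 to 374 bp wide, close to 324 bp, which is 2 times the fragment length MACS estimated for the library. They held 32 to 74 tags at 42.5- to 79.9-fold enrichment, a median of 61.0-fold against 35.6-fold in the wider regions without partners, and 143 tags per kb against 80.9. A TAF3 peak outside the filter overlapped 4 of the 12 and an RNAPII peak 6, where the shares over all 680 regions were 28.1% and 68.7%. Examples are chr3:197380966-197381339 (79.9-fold, 74 tags), chr10:51623619-51623941 (79.6-fold, 60 tags) and chr22:21772115-21772435 (74.3-fold, 56 tags). Mappability and copy number at these places were not tested.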
